A study of Rattus norvegicus with 14 samples.

Results

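The account is of the dorsal root ganglia on the grafted side of rats sampled at 6 or 8 weeks, the time given in the labels. Libraries were chosen by a title naming the surgical side, which gave 7 of the 14 libraries in the series: 3 at 6 weeks, from rats A, B and E, and 4 at 8 weeks, from rats D, C, G and H. All rats were wild-type (WT) males, and their strain and age are not given in the sources used here. In every rat the extensor digitorum longus, a hindlimb muscle, had been grafted to the saphenous nerve of one hindlimb, and the other hindlimb was not operated on. RNA came from ganglia at levels L2 to L5 of each side, so each library mixes neurons whose axons ran in the operated nerve with neurons whose axons did not. The times were sampled in different rats, so that time and rat cannot be separated within an animal. The 7 unoperated-side libraries of the same rats were measured in the same way and serve as the background; no library from a rat without surgery is among these 14. Rats are called by the letters in the sample titles; the library names exchange C and D, which leaves the time groups as they are.

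A dorsal root ganglion holds the cell bodies of sensory neurons, which are wrapped by satellite glia, while Schwann cells myelinate their axons, and vessels, fibroblasts and resident macrophages fill the space between. After a peripheral nerve is cut, the cell bodies switch on regeneration genes such as Atf3, Sox11 and Gal, and an axon that is led into muscle can reconnect with a target. The saphenous nerve is a skin nerve, so a muscle graft gives its sensory axons a target other than skin. The comparison asks how the ganglia differ between the earlier and the later time after that operation.

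Expression was measured by RNA sequencing as estimated read counts per gene. Totals lay between 18489118 and 20561475 counts in the 3 libraries at 6 weeks and between 22633941 and 24540896 in the 4 at 8 weeks, so depth moved with time (two-sided exact permutation p = 0.0286, the smallest these 7 libraries allow, and 0.114 after Benjamini-Hochberg adjustment over 8 library measures). Values per library are given below as CPM, counts scaled to a library total and corrected by trimmed-mean (TMM) scaling factors, which is not corrected for gene length, so levels are compared only within a gene. Differences are log2 values, 8 minus 6 weeks, from edgeR. The standard error (SE) after ± is derived: the absolute log2 difference divided by the square root of edgeR's F statistic.

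Several libraries stood apart from the rest of their group before any gene was tested. Rat A at 6 weeks had the lowest neuronal content: its mean over 16 neuronal markers was 6.28 on the log2 CPM scale, against 8.37 in rat B and 9.20 in rat E. At 8 weeks the same mean was 9.41 in rat D, 8.48 in rat C, 9.40 in rat G and 9.56 in rat H. Rat B at 6 weeks carried spinal cord transcripts, with a mean of 6.35 over that list against 0.17 to 1.80 in the other 6 libraries. Mog, a protein of central myelin, stood at 1.31, 53.8 and 0.643 CPM in rats A, B and E and at 0.447, 0.0901, 0.283 and 0.335 CPM in rats D, C, G and H, so rat B alone lay above 2 CPM. Rat C at 8 weeks carried skeletal muscle transcripts, with a mean of 9.99 over that list against 0.82 to 5.75 elsewhere on the grafted side. Acta1, the actin of skeletal muscle, reached 7.68, 10665, 28.8 and 16.1 CPM in rats D, C, G and H and 30.5, 20.04 and 297 CPM in rats A, B and E. Rat C therefore exceeded every other grafted-side library for Acta1, and rat E was the next. For many of the gene lists below, medians with 1 library left out are given beside the full value. The spinal cord list had a median log2 difference of -4.72, and -1.22 without rat B. The skeletal muscle list had 3.97, and -2.83 without rat C. On the unoperated side rat H at 8 weeks carried muscle transcripts too, with a mean of 8.08 against 1.46 to 2.91 in the others. The median of the muscle list on that side was 4.12. Uchl1, Prph and Rbfox3, which mark sensory neurons, were detected in all 7 libraries; the lowest levels were those of rat A, at 368, 1158 and 1995 CPM in rats A, B and E for Uchl1.

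**Figure D1:**
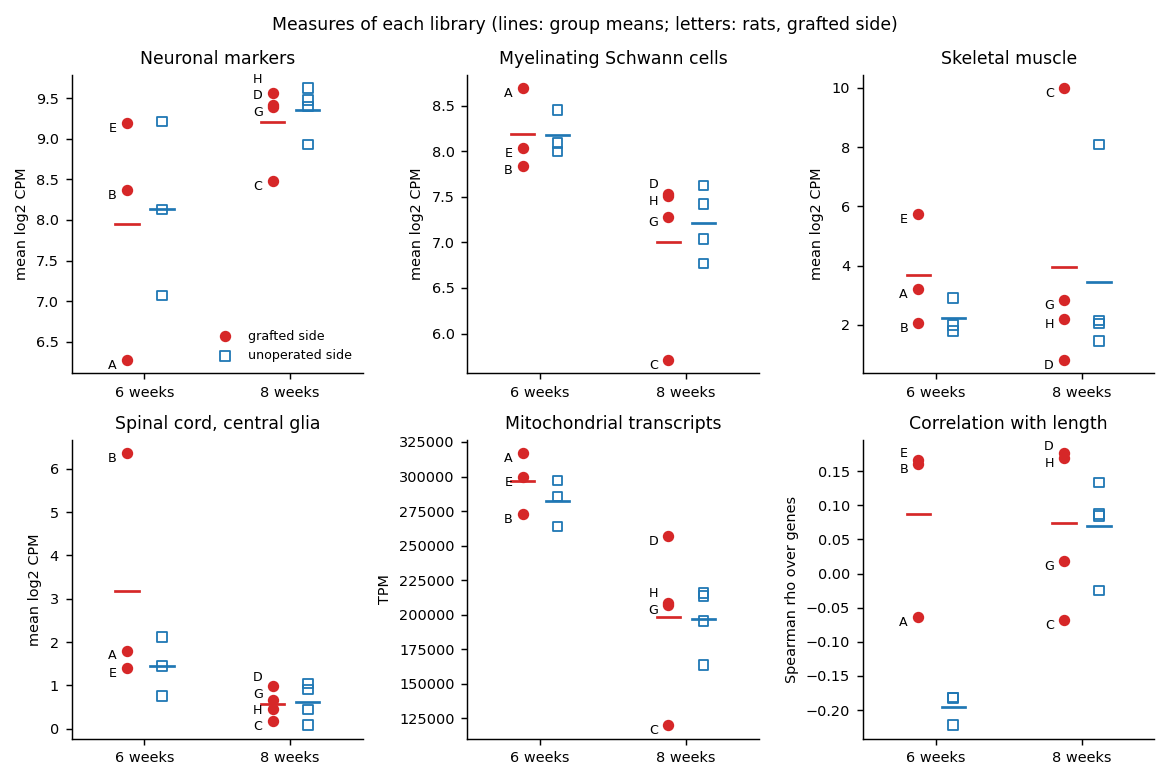
Each point is a library: red circles are the grafted side with the rat's letter, open blue squares the unoperated side, and horizontal lines are group means. The y axes give the mean log2 CPM of a marker list, the TPM (transcript share corrected for length) of mitochondrial transcripts, or Spearman's rho over genes. That rho is between transcript length and a gene's log2 CPM minus its mean over the 14 libraries. On the grafted side rat A is lowest for neuronal markers (6.28), rat B highest for spinal cord (6.35) and rat C highest for skeletal muscle (9.99).

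No gene passed the test between the times on the grafted side. Of 16606 genes tested with edgeR's quasi-likelihood method, 0 had a Benjamini-Hochberg adjusted p under 0.05, and the smallest adjusted p was 0.671. At an unadjusted p under 0.05 there were 1089 genes (6.56% of those tested), of which 810 (4.88%) were lower and 279 (1.68%) higher at 8 weeks. DESeq2 run on the same counts called 8 genes, 6 higher and 2 lower, and limma on log2(TPM + 1) called 3. The values of the 4 libraries at one time and the 3 at the other did not overlap for 983 genes that were higher at 8 weeks (5.92%) and 692 that were lower (4.17%). The median log2 difference over all genes tested was 0.01 and 50.5% of genes had a positive value. In what follows "apart" means that the groups did not overlap, and since nothing passed the adjusted test in edgeR, every gene is described by its values.

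The genes with the smallest p among those higher at 8 weeks included several whose 8-week libraries were nearly equal. Gprc5c, an orphan receptor of the G protein-coupled class C family, measured 14.7, 16.95 and 27.9 CPM in rats A, B and E and 39.3, 38.6, 38.6 and 38.7 CPM in rats D, C, G and H. The 4 later libraries lay within a narrow band above all 3 earlier ones, and the log2 difference was 0.91 ± 0.22 (edgeR unadjusted p = 0.00408, adjusted p = 0.671). On the unoperated side Gprc5c showed a log2 difference of -0.09 ± 0.27. Ufsp1, a protease that processes the ubiquitin-like protein UFM1, was at 0.454, 1.23 and 1.71 CPM at 6 weeks and 3.93, 3.92, 4.13 and 3.97 CPM at 8 weeks, in the same order of rats. Its groups were apart, with a log2 difference of 1.76 ± 0.44 on the grafted side and 0.77 ± 0.39 on the other, and DESeq2 called it (adjusted p = 0.0305). Cnbd2, which encodes a protein with a cyclic nucleotide-binding domain, was at 5.85, 8.18 and 9.38 CPM at 6 weeks and 13.6, 15.3, 17.5 and 14.9 CPM at 8 weeks. Hhipl1, a relative of the hedgehog-interacting protein, was at 9.58, 9.82 and 12.2 CPM at 6 weeks and 17.3, 18.1, 17.4 and 16.6 CPM at 8 weeks. Both were apart on the grafted side and called by DESeq2, with adjusted p = 0.0305 for Cnbd2 and 0.0305 for Hhipl1, and their log2 differences were 0.91 ± 0.21 and 0.65 ± 0.17.

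Other genes with higher values and small p had various roles. Bphl, a serine hydrolase, was at 19.8, 35.7 and 64.1 CPM in rats A, B and E and 115, 81.2, 121 and 102 CPM in rats D, C, G and H, a log2 difference of 1.34 ± 0.37. Its 6-week values followed the order of neuronal content, lowest in rat A and highest in rat E, and with that content as a covariate in edgeR the log2 difference was 0.84. Slc41a3, of a family of magnesium transporters, was at 7.11, 12.95 and 12.3 CPM against 20.7, 23.2, 22.5 and 18.9 CPM, a log2 difference of 0.92 ± 0.24. Slc4a2, which exchanges chloride for bicarbonate across the cell membrane, was at 50.05, 73.8 and 79.99 CPM against 121, 106, 112 and 115 CPM, a log2 difference of 0.67 ± 0.19. Prelid1, which carries phosphatidic acid within mitochondria, was at 6.20, 4.50 and 5.04 CPM against 9.83, 10.3, 11.3 and 8.78 CPM, a log2 difference of 0.86 ± 0.24. All 4 were apart on the grafted side. Vdac1-ps11, a pseudogene of a mitochondrial pore, was also among them (log2 difference 2.36 ± 0.39, DESeq2 adjusted p = 0.0305), but shares sequence with its parent gene and its counts are uncertain. The remaining DESeq2 calls in this direction were 2 genes without a symbol, ENSRNOG00000063421 with a log2 difference of 1.32 ± 0.21 and ENSRNOG00000064310 with 1.19 ± 0.26.

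Among genes with lower values at 8 weeks, Gatm and Sox9 were the 2 that DESeq2 called. Gatm, the first enzyme of creatine synthesis, was at 122, 103 and 73.7 CPM in rats A, B and E and 50.4, 35.6, 49.97 and 48.1 CPM in rats D, C, G and H. The groups were apart by a wide margin, with a log2 difference of -1.20 ± 0.24 (edgeR unadjusted p = 0.00131, adjusted p = 0.671; DESeq2 adjusted p = 0.0458). Sox9, a transcription factor of glia and of cartilage-forming cells, was at 13.2, 8.91 and 5.95 CPM against 3.31, 2.61, 2.02 and 3.35 CPM, a log2 difference of -1.82 ± 0.37 (DESeq2 adjusted p = 0.0305). Leaving out any 1 grafted-side library kept Gatm between -1.38 and -0.99 and Sox9 between -2.05 and -1.44. The same genes measured -1.004 ± 0.24 and -1.9996 ± 0.35 on the unoperated side. There edgeR called neither (adjusted p = 0.09 and 0.0785), and it called neither on the grafted side (edgeR adjusted p = 0.671 for both). Rnase4, a secreted ribonuclease, was at 118, 48.9 and 34.5 CPM against 24.3, 20.6, 19.7 and 20.9 CPM, a log2 difference of -1.75 ± 0.43. The 8-week values of Rnase4 were nearly equal and rat A was far above the others at 6 weeks. Its log2 difference was -1.01 without rat A and -0.79 with neuronal content as a covariate. Med21, a subunit of the Mediator complex that links transcription factors to RNA polymerase II, was at 34.1, 22.9 and 23.1 CPM against 13.6, 15.5, 15.01 and 14.1 CPM, a log2 difference of -0.96 ± 0.22. Pcmtd2, a relative of protein repair methyltransferases, was at 40.9, 37.7 and 31.6 CPM against 25.2, 24.4, 22.9 and 24.3 CPM, a log2 difference of -0.68 ± 0.17. Both were apart, and Med21 was also called on the unoperated side (log2 difference -1.64 ± 0.19, edgeR adjusted p = 0.0344).

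**Figure D2:**
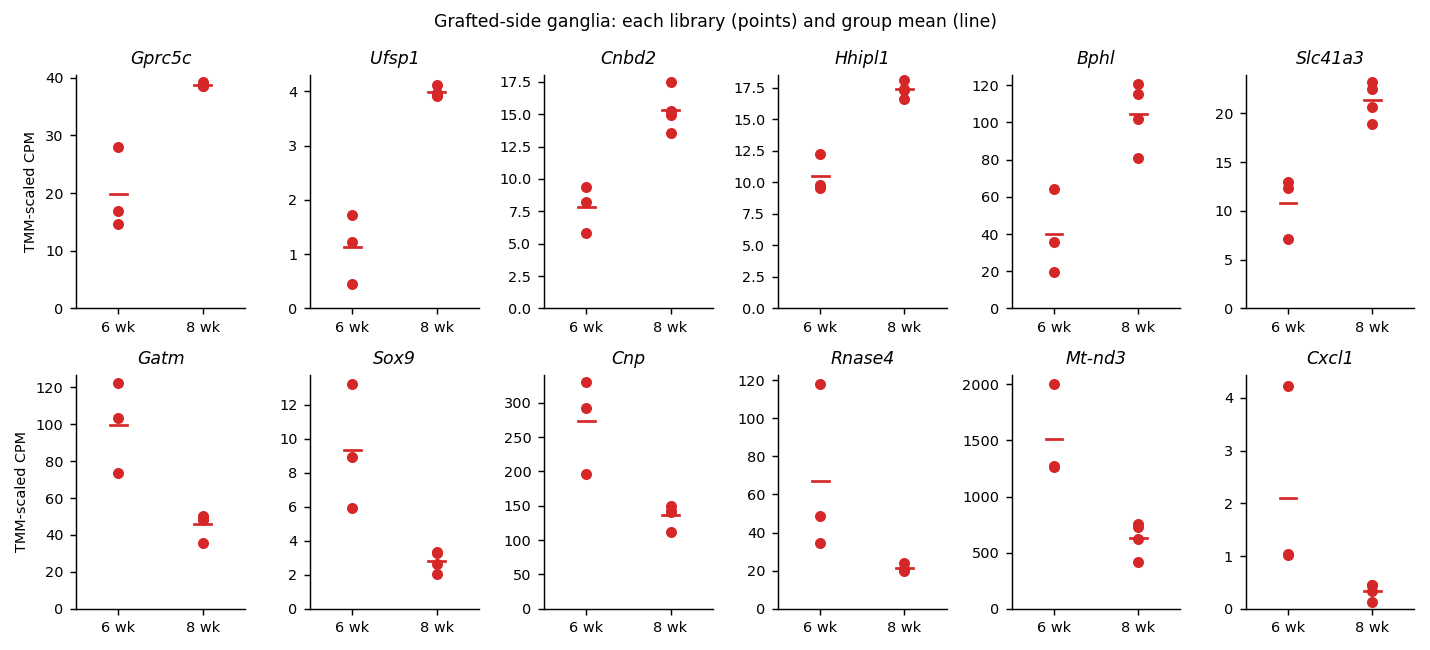
Each point is a grafted-side library and each line a group mean, in TMM-scaled CPM on a linear axis from 0, for 6 genes with higher values at 8 weeks (top) and 6 with lower values (bottom). All 12 genes were apart; the 4 later values of Gprc5c cluster near 39 CPM while its earlier ones spread from 14.7 to 27.9.

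Sensory neuron genes had higher values at 8 weeks as a group, but in no case apart. The log2 difference was positive for all 16 neuronal markers (median 0.86), and 0 of them were apart; in the mean over the list rat E (9.20) lay above rat C (8.48). The median was 0.41 without rat A and 1.57 without rat E, and 0.74 on the unoperated side. Nefh, the heavy neurofilament of large myelinated axons, was at 585, 2732 and 4645 CPM at 6 weeks and 6029.7, 2657, 6652 and 6839 CPM at 8 weeks. Rat A was lowest and rats D, G and H highest, and the groups overlapped through rat C (log2 difference 1.02 ± 0.67, or 0.56 without rat A and 1.68 without rat E). In these bulk samples fewer cells of a type and less RNA per cell cannot be told apart.

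Nociceptor genes had positive values that depended on rats A and E. All 14 genes of peptidergic nociceptors (median 0.64) and all 15 of non-peptidergic nociceptors and pruriceptors that were tested (median 0.28) had positive values, with 0 apart in either list. The medians were 0.25 and 0.04 without rat A and 1.47 and 1.27 without rat E, and the unoperated side had 1.26 and 1.36. Calca, which encodes the peptide CGRP, was at 100.1, 389 and 755 CPM at 6 weeks and 916, 355, 627 and 604 CPM at 8 weeks. Rat A was again the lowest and rat E lay among the later libraries (log2 difference 0.55 ± 0.62). Scn10a, the sodium channel Nav1.8 of nociceptors, was at 13.9, 112 and 298 CPM at 6 weeks and 273, 169, 274 and 313 CPM at 8 weeks, with rat A again lowest. Tac1 (substance P precursor), Trpv1 (heat and capsaicin receptor), Mrgprd and P2rx3 (both of non-peptidergic nociceptors) had log2 differences of 0.48, 0.68, 0.74 and 0.60, each of which was nearer 0 without rat A and larger without rat E. When neuronal content entered edgeR as a covariate, the medians were -0.12 for peptidergic and -0.25 for non-peptidergic genes, so both lists turned sign. That covariate is the mean of the neuronal markers in these same libraries and was itself higher at 8 weeks, by 1.26. A shift of neuronal genes towards 0 is therefore largely fixed by its choice, and the median of the markers themselves became 0.06.

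Proprioceptor genes had one value far from the rest. Pvalb, a calcium buffer of proprioceptors that is also made by fast skeletal muscle, was at 41.8, 74.9 and 159 CPM at 6 weeks and 158, 1020.2, 164 and 168 CPM at 8 weeks. The high value belonged to rat C, whose library also held the muscle transcripts described above, and the log2 difference of 2.00 was 0.77 without that rat. Runx3, a transcription factor of proprioceptors, was at 15.2, 13.2 and 18.9 CPM against 17.6, 23.97, 23.7 and 22.7 CPM, with rat E above rat D, so the groups overlapped (log2 difference 0.41 ± 0.20). Mafa, of low-threshold mechanoreceptors, had a log2 difference of 1.30 ± 0.54. Over the 19 genes of proprioceptors and myelinated mechanoreceptors the median was 0.41 (0.12 without rat A and 0.55 without rat E), 15 were positive and 0 were apart. Of 26 sodium and calcium channel genes (median 0.51, or 0.11 without rat A and 1.01 without rat E) 3 were apart and higher, where 5.92% of all genes were, among them Cacnb1 at 6.70, 26.95 and 37.2 against 41.5, 63.5, 39.4 and 41.04 CPM and Cacna2d1 with a log2 difference of 1.03 ± 0.56. Cacna2d1 encodes the calcium channel subunit bound by gabapentin, and in it rats E and C were nearly level. Without rat A the log2 difference was 0.50 for Cacnb1 and 0.57 for Cacna2d1.

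Genes switched on by axon injury did not separate the times. Over 33 such genes the median was -0.12, 13 were positive and 1, Cacna2d1, was apart and higher, where 5.92% of all genes were. The median ranged from -0.21 to 0.14 with 1 library left out. Atf3, a transcription factor of injured neurons, was at 24.1, 28.997 and 27.1 CPM in rats A, B and E and 40.8, 5.36, 38.6 and 43.8 CPM in rats D, C, G and H. Rats D, G and H lay above all 3 earlier libraries and rat C far below them, which left a log2 difference of 0.19 ± 0.60. Without rat C it was 0.54, the highest of the values with 1 library left out. On the unoperated side Atf3 stood at 15.6, 37.01 and 19.3 CPM at 6 weeks and 18.8, 8.38, 9.06 and 12.004 CPM at 8 weeks. Vip, a peptide that sensory neurons make after injury, was at 0.756, 6.18 and 6.05 CPM and 4.11, 0.180, 5.02 and 7.24 CPM on the grafted side, and at 0.624, 0.0524 and 0.194 CPM and 0.107, 0.220, 0.107 and 0.175 CPM on the other. Rats A and C were below 1 CPM for Vip on the grafted side and the other 5 rats above 4 CPM. Stac2, an adaptor protein, was at 3.88, 30.6 and 6.11 CPM at 6 weeks and 6.52, 1.44, 10.4 and 15.1 CPM at 8 weeks on the grafted side, highest in rat B, and at no more than 1.14 CPM in any library of the other side. Gal (galanin), Sox11 and Gap43 (both of growing axons), Npy and Csf1 (the signal from injured neurons to microglia) had log2 differences of -0.33 ± 0.51, 0.51 ± 0.54, 0.61 ± 0.49, -0.87 ± 0.52 and -0.21 ± 0.42, all with overlapping groups. Hspb1, a small heat shock protein, had the smallest p of the list: 180.0, 176 and 263 CPM against 719, 239.9, 395 and 391 CPM, a log2 difference of 1.01 ± 0.39 (edgeR unadjusted p = 0.0336), with rat E above rat C.

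Myelin genes had lower values at 8 weeks. All 14 genes of myelinating Schwann cells had negative log2 differences, with a median of -1.15, and 6 of the 14 (42.9%) were apart, against 4.17% of all genes. Cnp, an enzyme of myelin-forming cells, led the list. Its upstream sequence is shown because SOX factors direct myelin genes, and whether any of them acts there was not tested. The 250 bases before the start on the plus strand, chr10:86011254-86011503 in the RefSeq table for GRCr8, contain the SOX core letters ACAAAG (capitals) 203 bases before the start.
Cnp: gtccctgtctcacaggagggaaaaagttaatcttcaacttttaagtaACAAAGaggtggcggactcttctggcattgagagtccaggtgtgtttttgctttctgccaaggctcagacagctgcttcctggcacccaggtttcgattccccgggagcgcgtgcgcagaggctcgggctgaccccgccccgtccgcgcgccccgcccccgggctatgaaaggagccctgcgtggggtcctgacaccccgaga
Searched on both strands, those letters are in 16.0% of the 27457 upstream windows of this length, so the match is a description of a common motif. Cnp measured 293, 329.9 and 197 CPM in rats A, B and E and 142, 112, 149.7 and 142 CPM in rats D, C, G and H. The groups were apart, with a log2 difference of -1.09 ± 0.25 (edgeR unadjusted p = 0.00263, adjusted p = 0.671) and -0.78 ± 0.16 on the unoperated side.

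Mbp, which compacts the myelin sheath, was at 5883, 5138 and 3229.9 CPM at 6 weeks and 2139.7, 539.7, 1413 and 1645 CPM at 8 weeks. It was apart, with a log2 difference of -1.82 ± 0.50, and rat C was lowest. Mag, an adhesion protein of both central and peripheral myelin, was apart but highest in rat B, whose library carried spinal cord transcripts, at 24.998, 114 and 14.9 CPM against 14.2, 5.09, 11.3 and 12.2 CPM, and its log2 difference of -2.35 was -1.11 without rat B. Gjb1, a gap junction protein of Schwann cells chosen here after its values were seen, was apart without such a peak, at 36.9, 23.1 and 16.8 CPM against 15.99, 4.55, 12.8 and 13.1 CPM. The median over the list was -1.40 without rat B, -0.62 without rat A, -0.94 without rat C and -0.98 without rats B and C. With rats B and C left out all 14 genes were apart, where 16.8% of all genes were. With neuronal content entered as a covariate the median was -0.81. On the unoperated side all 14 genes were negative too, with a median of -0.98 and 13 apart, against 10.2% of all genes there.

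Satellite glia genes had a median of -0.48, with 2 of 14 positive and 2 apart and lower, where 4.17% of all genes were. Slc1a3, a glutamate transporter, was highest in rat B, at 16.3, 74.2 and 16.2 CPM against 15.1, 11.7, 11.7 and 19.7 CPM, with rat H of the later group above rats A and E, and its log2 difference of -1.36 was -0.33 without rat B. Fabp7, a lipid carrier that defines satellite glia, was at 4.94, 26.2 and 10.8 CPM against 27.8, 3.52, 19.2 and 16.4 CPM, and its log2 difference of 0.19 ± 0.73 was within the spread between rats. The median of the list was -0.37 without rat B, -0.27 without rat C and -0.64 without rat H.

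Vessel genes had mostly lower values at 8 weeks on both sides, and smooth muscle genes on the grafted side. Of 17 genes of endothelial cells and pericytes 15 had negative values (median -0.50) and 5 (29.4%) were apart, against 4.17% of all genes. The median was -0.25 without rat A, -0.70 without rat B and -0.66 without rat E. On the unoperated side the median was -0.36, with 4 of 17 positive and 3 apart and lower, against 10.2% of all genes there, and the median of the difference between the sides was 0.01. Acta2, the actin of smooth muscle and pericytes, had the smallest p. The 250 bases upstream of it are shown because the serum response factor acts on smooth muscle genes through CArG boxes. Whether that factor acts there was not tested. On the minus strand at chr1:241172504-241172753 (RefSeq, GRCr8), the capitals mark 2 CArG boxes with 1 inner base other than A or T, CCCTATATGG at 134 and CCTTGTTTGG at 84 bases before the start, and the TATA-like letters TATATAA at 42 bases before it.
Acta2: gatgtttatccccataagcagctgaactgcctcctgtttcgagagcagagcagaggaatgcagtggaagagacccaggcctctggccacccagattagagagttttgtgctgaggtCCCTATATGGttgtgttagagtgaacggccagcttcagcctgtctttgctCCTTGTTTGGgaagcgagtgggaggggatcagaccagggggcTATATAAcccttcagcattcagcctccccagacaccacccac
Searched on both strands, a CArG box with at most 1 such base is in 7.97% of the 27457 windows and TATATAA in 3.40%, and the 3 marked stretches do not overlap. Acta2 was at 67.6, 56.9 and 52.6 CPM in rats A, B and E and 41.9, 26.99, 29.5 and 39.2 CPM in rats D, C, G and H. All 4 later libraries lay below all 3 earlier ones, with a log2 difference of -0.86 ± 0.22 (edgeR unadjusted p = 0.00508, adjusted p = 0.671). The unoperated side had 57.2, 102 and 51.9 CPM at 6 weeks and 36.3, 108, 165 and 52.7 CPM at 8 weeks, so rats C and G were highest there and lowest on the grafted side.

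The contractile genes of smooth muscle were listed after these values were seen, so their counts are a description. Of 16 tested, 8 were apart and lower (median over the list -0.79), where 4.17% of all genes were. The unoperated side had a median of 0.03 with 1 apart and lower, where 10.2% of all genes were. Cnn1 (calponin) was at 11.8, 8.23 and 7.61 CPM at 6 weeks and 4.38, 2.25, 2.31 and 4.89 CPM at 8 weeks, a log2 difference of -1.50 ± 0.39. Tagln (transgelin, which binds actin) was at 256, 94.3 and 112 CPM against 76.9, 47.6, 54.8 and 59.4 CPM, a log2 difference of -1.47 ± 0.39, or -0.82 without rat A, which was highest. Myh11, the myosin heavy chain of smooth muscle, was at 58.3, 51.4 and 48.9 CPM against 45.2, 23.03, 25.8 and 40.99 CPM, a log2 difference of -0.73 ± 0.28. In each of the 3 every later library was below every earlier one. Itga8, an integrin of mural and mesangial cells, Actg2, the enteric smooth muscle actin, Lmod1, which builds thin filaments, and Kcnmb1, a potassium channel subunit of smooth muscle, were apart as well, with log2 differences of -1.23 ± 0.32, -1.30 ± 0.34, -1.12 ± 0.32 and -1.30 ± 0.52. Rgs5, a pericyte marker, was at 38.3, 31.5 and 47.9 CPM against 30.2, 19.4, 18.9 and 25.3 CPM, and Vwf (von Willebrand factor, of endothelium) at 107, 70.1 and 78.5 CPM against 48.6, 52.7, 24.9 and 45.97 CPM. Both were apart, with log2 differences of -0.81 ± 0.23 and -1.06 ± 0.31. The 4 positive members of the contractile list were Des, Tpm1, Tpm2 and Synpo2, which skeletal muscle also expresses, and rat C carried that muscle. The unoperated-side library of rat H at 8 weeks carried it too. Whether that muscle gave these 4 genes their sign was not tested. The median of the list was -0.54 without rat A, -1.08 without rat C and -0.85 without rats B and C.

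**Figure D3:**
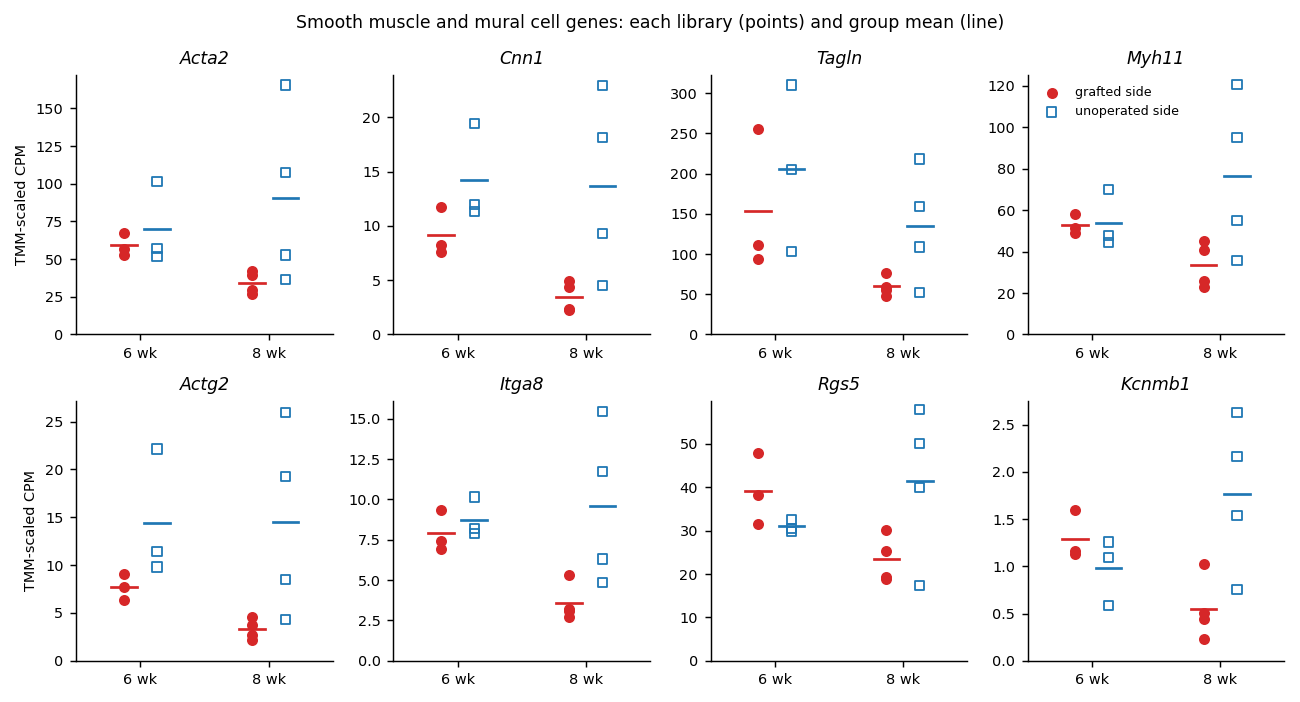
Each point is a library, in TMM-scaled CPM on a linear axis from 0, for 8 genes of smooth muscle and mural cells; red circles are the grafted side, open blue squares the unoperated side and lines group means. On the grafted side all 8 genes were apart and lower at 8 weeks, while on the unoperated side the later values spread above and below the earlier ones.

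A test of the difference between the sides did not separate them for these genes. In edgeR with rat as a block, grafted minus unoperated for the 8 minus 6 week difference was -0.97 ± 0.70 for Acta2, -1.19 ± 0.87 for Cnn1, -1.04 ± 0.58 for Rgs5 and -2.15 ± 0.89 for Kcnmb1. Each adjusted p from edgeR was 1, and the unadjusted p were 0.209, 0.21, 0.115 and 0.0452.

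Immune genes had mostly lower values at 8 weeks. For macrophages 17 of 19 genes were negative (median -0.80), for T, B and NK cells 15 of 17 (median -0.66), for class II MHC and interferon-response genes 18 of 21 (median -0.43), and for cytokines and chemokines 15 of 16 (median -1.10). Few of them were apart and lower: 1, 1, 1 and 2 genes, in that order of lists, against 4.17% of all genes; the macrophage gene Lgals3 was apart and higher. Cxcl1, a chemokine that draws neutrophils, had the smallest p among the cytokines. Its upstream sequence is shown because NF-kappaB is known to switch it on: the 250 bases on the minus strand at chr14:17479322-17479571 (RefSeq, GRCr8) hold a kappaB motif, GGGAATTTCC, 84 bases before the start. A second match on the other strand overlaps it by all but 1 base, and the capitals mark both.
Cxcl1: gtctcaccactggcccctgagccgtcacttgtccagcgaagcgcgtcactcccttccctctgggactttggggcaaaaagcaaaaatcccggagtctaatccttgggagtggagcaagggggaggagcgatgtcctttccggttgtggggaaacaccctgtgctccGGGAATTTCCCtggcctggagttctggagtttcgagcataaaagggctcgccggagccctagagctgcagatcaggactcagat
The kappaB motif, with its usual choices of base, is in 3.52% of the 27457 windows on either strand. Whether NF-kappaB acts there was not tested. Cxcl1 was at 4.23, 1.05 and 1.02 CPM in rats A, B and E and 0.134, 0.451, 0.445 and 0.335 CPM in rats D, C, G and H, a log2 difference of -2.71 ± 0.70 (edgeR unadjusted p = 0.00568, adjusted p = 0.671). The groups were apart at a low level, and rat A stood above the rest. Its log2 difference on the unoperated side was -2.02 ± 0.55.

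Fcer1g, a signalling chain of Fc receptors on macrophages, was at 127, 121 and 112 CPM at 6 weeks and 39.3, 91.8, 60.4 and 62.7 CPM at 8 weeks, a log2 difference of -0.99 ± 0.29, and was apart. Ctss, a lysosomal protease of the same cells, was at 151, 106 and 45.002 CPM against 38.2, 57.2, 44.4 and 33.9 CPM, with rat C above rat E. Cd3e, a chain of the T cell receptor complex, was at 4.44, 2.05 and 1.23 CPM against 0.759, 0.721, 0.971 and 0.753 CPM and apart, with a log2 difference of -1.78 ± 0.49. Ifit2, an interferon-induced gene, was apart at 26.5, 20.4 and 23.5 CPM against 12.2, 16.8, 18.2 and 13.6 CPM. Ccl3 and Cxcl13, chemokines for monocytes and for B cells, had log2 differences of -1.73 ± 0.52 and -1.35 ± 0.53. Cd68, a lysosomal protein of macrophages, went against the list, at 29.2, 30.3 and 11.04 CPM against 9.38, 72.4, 15.5 and 7.78 CPM, with rat C the highest of all. Its log2 difference was 0.08 ± 0.85 with rat C and -1.22 without it. Rat A, which had the least neuronal RNA, was the highest of all 7 for Ctss, Cd3e, Cxcl1 and Ccl3. Without rat A the log2 difference was -1.61 for Cxcl1, -1.07 for Cd3e and -0.35 for Cxcl13. Without rat A the medians were -0.22 for macrophages, -0.08 for T, B and NK cells, 0.01 for MHC and interferon genes and -0.47 for cytokines. The lowest medians with 1 library left out were -1.23, -1.18 and -0.84 without rat C for the first 3 lists and -1.46 without rat E for cytokines. The unoperated side had medians of -1.42, -1.26, -1.09 and -1.50. With neuronal content as a covariate they were 0.21, 0.33, 0.19 and -0.29, so 3 of these 4 lists turned sign under that covariate.

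Immediate early genes, which answer handling and stress within minutes, had mostly negative values. Of 18 genes 16 were negative (median -0.81) and 1 was apart and lower, a share near the 4.17% of all genes. Fos was at 172, 24.9 and 7.45 CPM at 6 weeks and 12.9, 10.5, 6.03 and 6.19 CPM at 8 weeks, with rat A far above the others and rat E within the later range (log2 difference -3.07 ± 0.98, or -0.92 without rat A). Nr4a1, an orphan nuclear receptor of the same response, was at 119, 80.6 and 71.9 CPM against 65.8, 49.9, 61.3 and 48.9 CPM and apart, with a log2 difference of -0.77 ± 0.24. Without rat A the median of the list was -0.36 and the value of Nr4a1 -0.47. The median of the list was -1.14 without rat B. The unoperated side had a median of -1.29.

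Genes of the mitochondrial genome had lower values at 8 weeks. All 13 protein genes of the mitochondrial genome had negative log2 differences, with a median of -0.93, and 6 (46.2%) were apart, against 4.17% of all genes. Mt-nd3, a subunit of complex I, was at 2006, 1266 and 1277 CPM in rats A, B and E and 729, 413, 760.0 and 618 CPM in rats D, C, G and H. Its groups were apart, with a log2 difference of -1.36 ± 0.33 (edgeR unadjusted p = 0.00397). Mt-co2, a subunit of complex IV, was at 13546, 9542 and 9642 CPM against 7278, 4397, 6557 and 6148 CPM, apart, with a log2 difference of -0.93 ± 0.34. The median was -0.62 without rat A, -1.19 without rat B and -0.81 without rat C. With rats B and C left out all 13 were apart, where 16.8% of all genes were. The unoperated side had a median of -1.09 with 12 apart and lower, where 10.2% of all genes were.

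Nuclear genes of oxidative phosphorylation went the other way on the grafted side. Of 75 tested 63 had positive values (median 0.24), 26 (34.7%) were apart and higher, against 5.92% of all genes, and 2 were apart and lower. Uqcrc1, of complex III, chosen after its values were seen, was at 101, 195 and 190.5 CPM at 6 weeks and 251, 293, 256 and 241 CPM at 8 weeks. It was apart, with a log2 difference of 0.62 ± 0.26. Atp5me, a subunit of the ATP synthase, was one of those apart and lower, at 12.1, 13.1 and 18.6 CPM against 11.5, 9.51, 9.27 and 9.62 CPM. Mitochondrial ribosomal proteins had a median of 0.16 with 11 of 72 apart and higher, and import and assembly factors a median of 0.16 with 6 of 31, among them Tomm40, the channel of the outer membrane, at 33.6, 49.95 and 57.4 CPM against 71.4, 70.6, 67.2 and 72.5 CPM. Without rat A the medians of these 3 lists were 0.16, 0.09 and 0.08, and without rat B that of import and assembly factors was 0.04. Without rat E the 3 medians were 0.31, 0.24 and 0.26. Without rats B and C 37 of the 75 nuclear genes were apart and higher, where 23.3% of all genes were. On the unoperated side 28 of the 75 were positive (median -0.07). There 5 were apart and higher and 18 apart and lower, where 14.3% and 10.2% of all genes were. Medians on that side were -0.12 for mitochondrial ribosomal proteins and -0.23 for import and assembly factors.

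Proteasome subunits had a median of 0.28, with 26 of 31 positive and 13 (41.9%) apart and higher, against 5.92% of all genes. Psmb5, which holds a catalytic site of the core, was at 84.4, 108 and 142 CPM at 6 weeks and 190.2, 162, 162 and 157 CPM at 8 weeks, a log2 difference of 0.52 ± 0.21. Psmd4, a ubiquitin receptor of the cap, was at 78.3, 97.9 and 125 CPM against 150.1, 146, 142 and 132 CPM, a log2 difference of 0.44 ± 0.19. Both were apart, and in both the earlier values followed the neuronal content, lowest in rat A and highest in rat E. The median of the proteasome list was 0.14 without rat A and 0.43 without rat E. With neuronal content as a covariate the median was 0.08 for the proteasome and 0.15 for nuclear oxidative phosphorylation genes. Cytosolic ribosomal proteins had a median of -0.24, with 1 of 73 positive and 3 (4.11%) apart and lower, near the 4.17% of all genes. Rpl39 was at 238, 111 and 117 CPM against 60.6, 106, 65.1 and 68.1 CPM and apart, with a log2 difference of -1.14 ± 0.36. Without rat A the value of Rpl39 was -0.64. The median of the list was 0.08 without rat A, -0.48 without rat B, -0.58 without rat C and 0.28 with neuronal content as a covariate, and many of these genes have processed copies that can share reads. Mitochondrial transcripts took between 272901 and 316724 TPM at 6 weeks and between 119922 and 257088 TPM at 8 weeks. On the log2(TPM + 1) scale the median of all genes was itself 0.21 and the ribosomal median was 0.02. The ribosomal list therefore lay below the median gene on that scale too, although its sign changed. Its sign also changed without rat A and with the covariate. On the unoperated side the ribosomal median was -0.86 with 38 of 73 apart and lower, where 10.2% of all genes were. The proteasome median there was 0.12, with 2 apart and higher and 6 apart and lower, where 14.3% and 10.2% of all genes were.

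**Figure D4:**
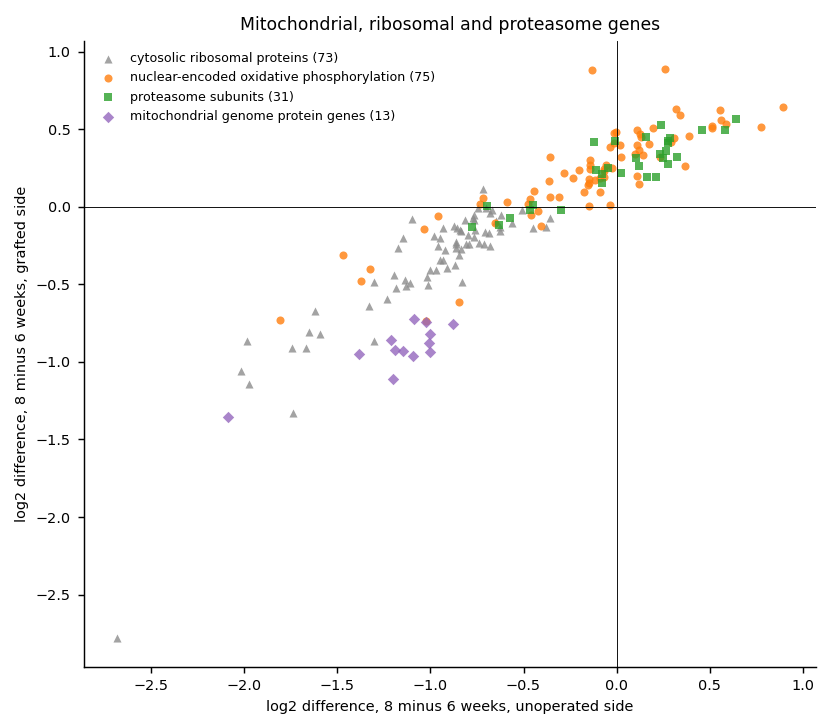
Each point is a gene, placed by its log2 difference (8 minus 6 weeks) on the unoperated side (x axis) and on the grafted side (y axis); lines mark 0. Mitochondrial genome genes (purple) were below 0 on both sides, most nuclear oxidative phosphorylation genes (orange, 63 of 75) were above 0 on the grafted side, and all ribosomal proteins (grey) but 1 were below 0 there.

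Growth factors and guidance cues showed few consistent values. Of 24 neurotrophic factor and receptor genes 14 were positive (median 0.11, from 0.01 to 0.21 with 1 library left out) and 1 was apart and lower, where 4.17% of all genes were. Igf1, a growth factor of stromal and immune cells, was at 95.3, 31.3 and 46.2 CPM at 6 weeks and 32.8, 27.2, 20.5 and 27.5 CPM at 8 weeks, with rat D above rat B. Its log2 difference was -1.19 ± 0.40, or -0.55 without rat A. Of 33 axon guidance genes 21 were positive (median 0.13, from -0.06 to 0.17 with 1 library left out) and 1 was apart and higher, where 5.92% of all genes were: Plxna2, a semaphorin receptor, at 23.6, 53.1 and 66.4 CPM against 95.4, 70.2, 98.9 and 91.3 CPM, a log2 difference of 0.84 ± 0.32, or 0.54 without rat A.

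In each of the following gene lists 1 gene at most was apart. Fibroblast and collagen genes had a median of -0.59, with 6 of 19 positive and 0 apart. That median was -1.15 without rat C and -0.01 without rat A. Dcn (decorin, of the matrix) was at 2036, 300.0 and 800.3 CPM in rats A, B and E and 461, 203, 369 and 396 CPM in rats D, C, G and H. Col1a1, a collagen chain described because of its extreme value, was at 1478, 862 and 587 CPM against 447, 19919.6, 374 and 243 CPM, so the library of rat C held a collagen level above every other one. Among neuronal lists the medians were 0.45 for 26 potassium channel genes, 0.43 for 22 opioid, GABA and other inhibitory receptors, 0.09 for 8 genes of cold receptors and low-threshold C fibres and 0.17 for 24 long neuronal transcripts, with 0 apart in each. Without rat A these 4 medians were 0.07, -0.01, -0.29 and -0.01, and without rat E they were 0.95, 0.74, 0.56 and 0.40. Repair Schwann cell genes had a median of -0.04 (-0.30 without rat B) with 1 of 13, Olig1 (also a gene of central oligodendrocytes), apart and lower, where 4.17% of all genes were, and Gfap among them was at 52.4, 238 and 15.7 CPM against 18.9, 20.3, 13.7 and 14.6 CPM, highest in rat B. Neutrophil genes had a median of -0.38, red blood cell genes -0.16 and adipocyte genes 0.22, again with 0 apart. Without rat C these 3 medians were -1.05, -1.21 and -0.55.

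**Figure D5:**
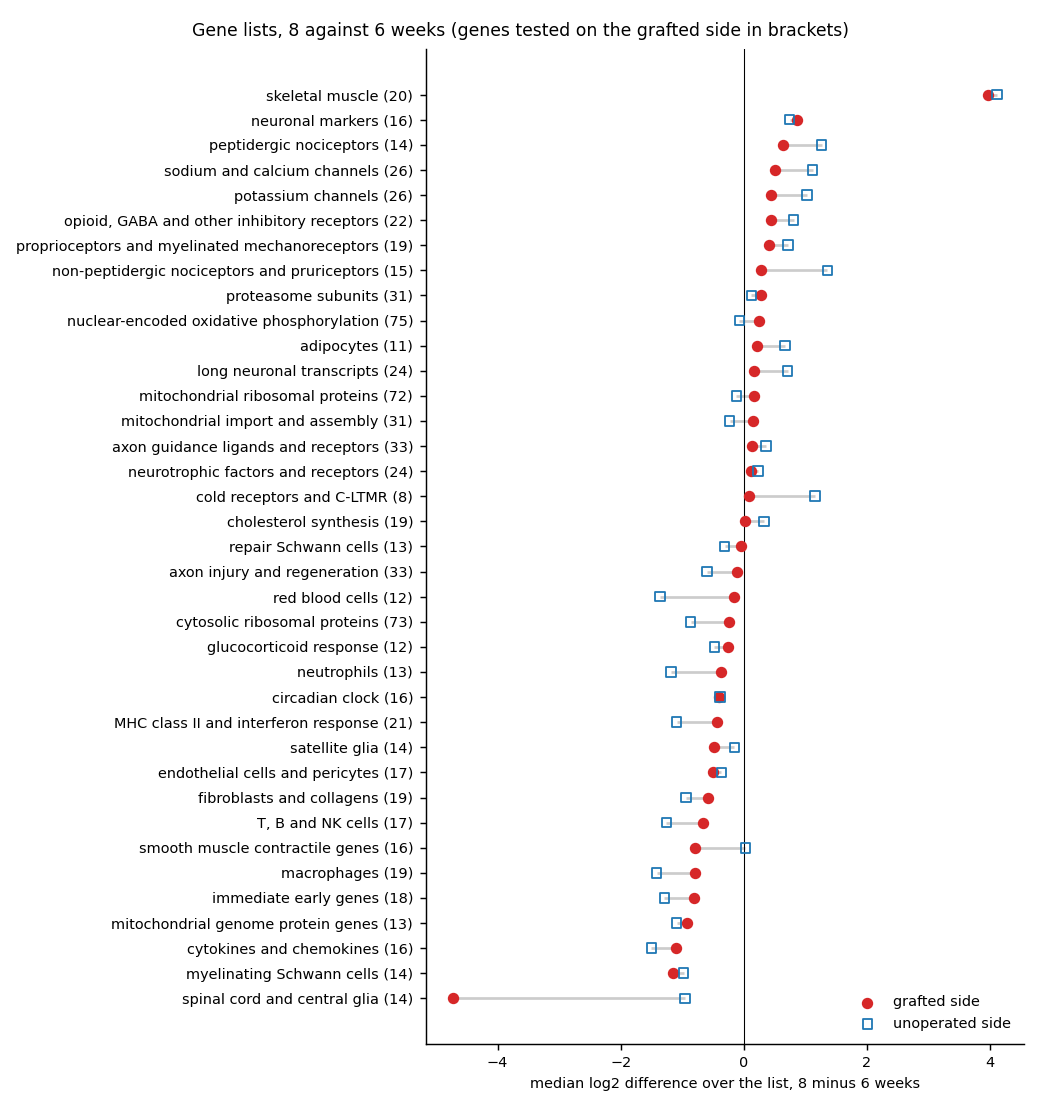
Each row is a gene list, with the number of its genes tested on the grafted side in brackets; the x axis gives the median log2 difference, 8 minus 6 weeks, on the grafted side (red circles) and the unoperated side (open blue squares). Skeletal muscle (3.97) and spinal cord (-4.72) lie at the ends, where rats C and B stand far from the other grafted-side libraries. Skeletal muscle is at 4.12 on the unoperated side, where rat H had a muscle level of 8.08, far above the others. Smooth muscle contractile genes are at -0.79 on the grafted side and 0.03 on the other.

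The unoperated side gave more calls than the grafted side. Of 16346 genes tested there, edgeR called 25 at an adjusted p under 0.05, 3 higher (0.0184%) and 22 lower (0.135%), but the count ranged from 0 to 6388 when 1 library was left out: without rat E it was 6388, without rat H it was 1 and without each of the other 5 rats it was 0. DESeq2 called 3133 genes there, and with the trend in transcript length removed edgeR called 0. Slirp, Timm8b and Cox7b, small nuclear-encoded mitochondrial proteins, were among the 25. Slirp was at 38.5, 44.1 and 44.7 CPM in rats A, B and E and 20.7, 23.01, 20.5 and 20.2 CPM in rats D, C, G and H of that side. On the grafted side it was at 20.2, 18.998 and 21.9 CPM and 20.3, 19.6, 22.7 and 19.3 CPM, so 6-week libraries of the grafted side were level with all 8-week ones. Timm8b had a log2 difference of -1.15 ± 0.14 on the unoperated side and -0.18 ± 0.15 on the grafted side, and Cox7b of -1.47 ± 0.17 and -0.31 ± 0.21. Ass1, which makes argininosuccinate on the way to arginine, was called as higher on the unoperated side (39.7, 30.1 and 43.8 CPM against 99.7, 97.7, 117 and 118 CPM), and its log2 difference on the grafted side was 0.70 ± 0.22, also apart.

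The difference between the sides was tested directly with rat as a block. Of 17419 genes edgeR called 0, with a smallest adjusted p of 1. Those at an unadjusted p under 0.05 numbered 266 (1.53%). By DESeq2 there were 5 calls, all with a higher 8 minus 6 week difference on the grafted side: Slirp (adjusted p = 0.0171), Timm8b (0.0111), Cox7b (0.0192), Cox6c and LOC103694416. The transcripts of all 5 were short, at percentiles of 0.855 to 2.50 for length, a relative length taken from the ratio of counts to TPM. In each library, Spearman's rho over genes was taken between that length and a gene's log2 CPM minus its mean over the 14 libraries. On the unoperated side rho lay between -0.22 and -0.18 at 6 weeks and between -0.02 and 0.13 at 8 weeks. Grafted libraries ranged from -0.06 to 0.17 at 6 weeks and from -0.07 to 0.18 at 8 weeks. Across 15910 genes, the log2 difference between the sides correlated with length at rho = -0.36, a description over genes that share these libraries. DESeq2 was not run with the length trend removed. Of genes tested on both sides and apart and higher on the grafted side, 327 were also apart and higher on the unoperated side, which is 33.4% of the former and 14.1% of the latter. For lower genes the number was 276, or 41.3% and 16.8%. The sides of a rat share that animal and the same comparison of times, so the shared genes are not independent evidence.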

How the data were processed

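RNA of ganglia was sequenced from both sides of 7 rats. Per the labels' protocols, libraries are described both as polyA and as made with ribosomal depletion. The authors deposited estimated counts per gene, all whole numbers, and TPM for 30562 Ensembl genes. Per the submitters' processing notes, Trim Galore, FastQC, Salmon and DESeq2 were used, with versions and genome build not given in the sources used here. Salmon estimates counts per transcript and divides reads shared by gene copies with a model.

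Genes were filtered with edgeR's filterByExpr (minimum count 10), scaled by TMM and tested with edgeR 4.0.16 (quasi-likelihood, robust) in R 4.3.3, on the 7 libraries of a side, with Benjamini-Hochberg adjustment over all genes tested and a threshold of 0.05. The sides were compared in 1 model over 14 libraries with rat as a block. DESeq2 1.42.0, limma 3.58.1 on log2(TPM + 1) and on log2(TPM + 0.1), other scalings, filters and left-out libraries were alternatives. Library measures were tested by two-sided exact permutation over the 35 ways to divide 7 libraries into 3 and 4. The procedure was tested on simulated data. Per-library CPM is linear and scaled by TMM over all 14 libraries; "apart" was read from the log2 CPM of the same libraries. P-values for the times measure the spread between rats of one side. Those for the difference between the sides measure how far the contrast between a rat's sides varied between rats.

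The 37 gene lists held 882 entries, of which 29 were not matched in the tables, among them all 7 nuclear-retained noncoding RNAs. The lists, the tests and the choice of this comparison were made with earlier results of these data known. Named genes were 12 per direction (those past the adjusted threshold and apart with the largest differences, filled by the smallest p among genes that have a symbol and average 1 TPM or more), the 3 smallest p of each list, a fixed set of ganglion genes, and 5 per direction for the difference between the sides. Outside this rule, chosen after their values were seen, are the smooth muscle list, Gjb1, Pmp22, Uqcrc1, Col1a1, Lgals3 and the marker genes that describe libraries. Some genes that the rule names are left out because they lack a clear name, have near-identical copies or repeat a list's pattern, and some genes are not reported here.

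The sides of a rat come from the same animal, so they are paired in the comparison of sides. The correlation of deviations from group means between a rat's sides was 0.25, -0.12, -0.40, -0.08, 0.73, 0.14 and -0.30 for rats A, B, C, D, E, G and H. No 2 libraries were identical.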

Additional observations from a re-analysis of the deposited data

Results flagged for a closer look

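In groups of 4, a library was marked where its distance to the nearest other one took up more of the group's range than Dixon's critical value at the 95% level, which chance gives in about 1 group of 20; of 98 groups of 4 examined, 13 were marked. All 13 are 8-week grafted-side libraries, and 11 are rat C. The marks cover the grafted side only and do not compare it with the unoperated side. There rat H at 8 weeks had a muscle level of 8.08, against 1.46 to 2.15 in rats C, D and G. Among the 8-week grafted-side libraries rat C had the lowest neuronal marker level, 8.48 on the log2 CPM scale, and the lowest myelinating Schwann cell level, 5.71. It was lowest on the log2 CPM scale for Gatm (5.16), Pmp22 (9.13), Nefh (11.38), Atf3 (2.45), Vip (-1.89), Gap43 (7.08) and Tac1 (6.42). It was highest for Pvalb (9.99) and Cacnb1 (5.99), which skeletal muscle also expresses. Rat D was highest for Gprc5c (5.30) and Psmb5 (7.57). For Gprc5c the other 3 libraries of that group lay between 38.6 and 38.7 CPM, so a gap of less than 1 CPM was enough.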

How the results depend on the processing

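The test between the times had 5 residual degrees of freedom, and rats A, B, C and E each moved whole gene lists. On the grafted side the count of genes called was 0 with every single library left out and under no filter, a filter of 1 CPM, DESeq2's size factors, upper quartile scaling, no robust dispersion, all 14 libraries sharing one spread, the length trend removed, the neuronal covariate and without rats B and C. It was 8 with DESeq2, 3 with limma on log2(TPM + 1) and 4 on log2(TPM + 0.1); the 4 limma genes were not those of DESeq2 and are not described because they rest on a few reads. Without rats B, C and E, an alternative added after seeing the data, it was 7794 (4641 higher, 3153 lower), but rat A was then the only 6-week library and was assumed to vary like the others. On the unoperated side 25 became 3133 with DESeq2 and 0 with the length trend removed, and ranged from 0 to 6388 with 1 library left out; for the difference between the sides 0 became 5 with DESeq2 and stayed 0 with each rat left out.

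Replicate numbers at the 2 times belong to different rats and pair nothing; with them as a replicate block edgeR called 0 genes on the grafted side and 0 on the unoperated side. Without a replicate block the difference between the sides still had 0 calls.

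Of 86 genes examined, 70 kept the sign of their log2 difference under every alternative. These changed sign: on log2(TPM + 1), Cd68 (-0.13), Vip (0.034), Csf1 (0.034), Slirp (0.15) and Timm8b (0.079); on log2(TPM + 0.1), Cd68 (-0.14), Csf1 (0.034), Slirp (0.16) and Timm8b (0.080); with upper quartile scaling, Cd68 (-0.035); with the length trend removed, Slirp (0.073); with the replicate block, Atf3 (-0.37) and Acta1 (-1.11). With the neuronal covariate these were Fabp7 (-0.88), Atf3 (-0.24), Csf1 (0.42), Gap43 (-0.16), Calca (-0.30), Tac1 (-0.48), Trpv1 (-0.066), Scn10a (-0.062), Mrgprd (-0.020) and P2rx3 (-0.32). Without rats B and C they were Cd68 (-0.98), Vip (0.65), Stac2 (1.04) and Acta1 (-3.25), and without rats B, C and E Cd68 (-1.52), Vip (2.74), Stac2 (1.36) and Acta1 (-0.90). With 1 library left out, the ranges were -0.20 to 0.97 for Fabp7, -1.22 to 0.36 for Cd68, -0.062 to 0.54 for Atf3, -0.61 to 0.28 for Vip, -0.62 to 0.11 for Csf1, -1.24 to 0.62 for Stac2 and -2.76 to 6.68 for Acta1. The cause of these changes was not tested.

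With 1 library left out, the 8 minus 6 week difference ranged from 3601749 to 4637927 for total counts and from -3.51 to -1.04 for the spinal cord level, where no permutation p can reach 0.05. It ranged from -1.72 to 1.34 for the muscle level, from -54572 to 5551 for haemoglobin TPM and from -0.089 to 0.034 for the correlation with length.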

Other observations

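Gene groups of daily rhythm, steroid response and lipid synthesis gave these values on the grafted side. Of 16 circadian clock genes 15 had negative values (median -0.41, or -0.21 without rat A and -0.67 without rat C) and 1 was apart and lower, where 4.17% of all genes were. Hlf, an output gene of the clock, was at 24.3, 13.5 and 11.4 CPM in rats A, B and E and 10.7, 9.10, 4.65 and 8.03 CPM in rats D, C, G and H, a log2 difference of -1.10 ± 0.39, and it was apart. The hour of tissue collection is not given in the sources used here. Of 12 glucocorticoid response genes 9 were negative (median -0.25, or 0.17 without rat A and -0.72 without rat C) and 0 apart. Sgk1, a kinase induced by glucocorticoids, was at 102, 122 and 57.5 CPM against 33.8, 38.6, 50.2 and 62.2 CPM, with rat H above rat E. The 19 cholesterol synthesis genes had a median of 0.02, from -0.10 to 0.22 with 1 library left out, with 0 apart.

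The spread between rats differed by time. Over the genes tested on the grafted side, the median SD of log2 CPM was 0.46 among the 3 libraries at 6 weeks and 0.38 among the 4 at 8 weeks, or 0.17 among the 3 later libraries without rat C. On the unoperated side it was 0.39 at 6 weeks and 0.25 at 8 weeks.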
